A study of Mus musculus with 18 samples.

Results

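AOA and HT-DNA were given to L929 cells singly and together, and the question addressed here was which genes responded to AOA differently once HT-DNA was present. For each gene the interaction was the log2 effect of AOA in HT-DNA-transfected cells (HT-DNA+AOA against HT-DNA) minus the log2 effect of AOA in untransfected cells (AOA against Mock). A positive interaction means that AOA moved the gene further up, or less far down, when HT-DNA was present, and a negative interaction means the opposite. The comparison used 12 of the 18 samples, 3 in each of 4 groups, and the same difference can be read the other way round, as the effect of HT-DNA with AOA minus its effect without AOA. L929 is an established line of mouse fibroblasts, and every group was wild type for this study. Mock cells are labelled with DMSO as their treatment, AOA cells received 0.5 mM AOA, HT-DNA cells received 0.5 µg/ml HT-DNA carried by Lipofectamine 2000 for 6 h, and HT-DNA+AOA cells received the same AOA from 1 h before the same transfection. The other 6 samples were AOA+Asp and HT-DNA+AOA+Asp cells, which had 20 mM aspartate beside AOA. They were not part of the comparison but entered the filter on low counts, the scaling and the shared estimate of the spread between replicates. Whether Mock and AOA cells were given Lipofectamine 2000 without DNA is not stated in the sources used here, so DNA and transfection reagent cannot be told apart in what is called the HT-DNA effect. The 3 libraries of a group were cultures of 1 cell line, so the p-values measure the spread between cultures, estimated in common over the groups. Chi-square per degree of freedom between replicates, which sets their differences against counting error, was 18.2 to 67.0 within HT-DNA+AOA. Within the other groups it was 2.78 to 13.3. The common spread can thus be too small for HT-DNA+AOA, which enters every interaction, and the size of this was not tested.

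AOA, aminooxyacetic acid, inhibits the transaminases that use pyridoxal phosphate, among them GOT2 and GPT2, and thereby limits the supply of aspartate, a precursor of pyrimidines and purines. HT-DNA is herring testis DNA, which binds the cytosolic sensor cGAS. cGAS makes cGAMP, cGAMP activates STING, and STING recruits TBK1, which phosphorylates IRF3 and leads to transcription of Ifnb1 and of chemokines such as Cxcl10 and Ccl5. Secreted interferon then acts through its receptor, JAK kinases and the ISGF3 complex on the interferon-stimulated genes (ISGs), through the interferon-stimulated response element (ISRE) in their promoters.

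Across all genes the interaction was tested for 14263 genes, and 2209 of them (15.5%) passed an adjusted p under 0.05 in edgeR's quasi-likelihood test. The interaction was positive for 1031 genes (7.23%) and negative for 1178 (8.26%), and the median interaction of all tested genes was 0.006. An absolute log2 of at least 1 was reached by 286 of the called genes (2.01%), mainly positive ones, with 248 genes (1.74%) at a log2 of at least 1 and 38 (0.266%) at -1 or below. The balance of directions depended on the scaling, since 46.7% of the called genes were positive with TMM factors, 52.3% with RLE factors and 64.5% with library totals. Of the 1031 positive genes 69 belonged to the gene lists on nucleic acid sensing, interferon signalling, ISGs, interferon-inducible GTPases, MHC class I and chemokines, 57 belonged to other lists and 905 to none. At a log2 of at least 2 the interferon-type lists held 23 of 59 genes. Of the 1178 negative genes 4 were in those lists, 63 in others and 1111 in none.

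The positive and negative genes differed in which group stood apart. Among the 1031 positive genes the HT-DNA group had the lowest mean for 629 (61.0%) and the HT-DNA+AOA group had the highest mean for 377 (36.6%). Among the 1178 negative genes HT-DNA had the highest mean for 846 (71.8%) and HT-DNA+AOA had the lowest for 411 (34.9%). HT-DNA alone lowered 773 of the positive genes and raised 998 of the negative ones, against 24% and 24.2% of all genes. HT-DNA without AOA called 6879 genes (48.2% of those tested), whereas HT-DNA with AOA called 1917 (13.4%). In the libraries with both AOA and aspartate, HT-DNA called 492 (3.45%). AOA called 6516 genes (45.7%) without HT-DNA and 6477 (45.4%) with it. The 4 simple effects share their control groups, so they are given side by side as values only. The interaction itself contains these effects, that of HT-DNA without AOA with a minus sign. Genes called positive were thereby selected in part for being lowered by HT-DNA alone, and genes called negative for being raised by it. Shares of called genes given here and in the lists below follow partly from that selection and are not separate results. For every list below, the shares over all genes are 7.23% called positive and 8.26% called negative. For 87 positive genes AOA lowered expression without HT-DNA and raised it with HT-DNA, and for 85 negative genes AOA raised expression without HT-DNA and lowered it with HT-DNA.

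**Figure D1:**
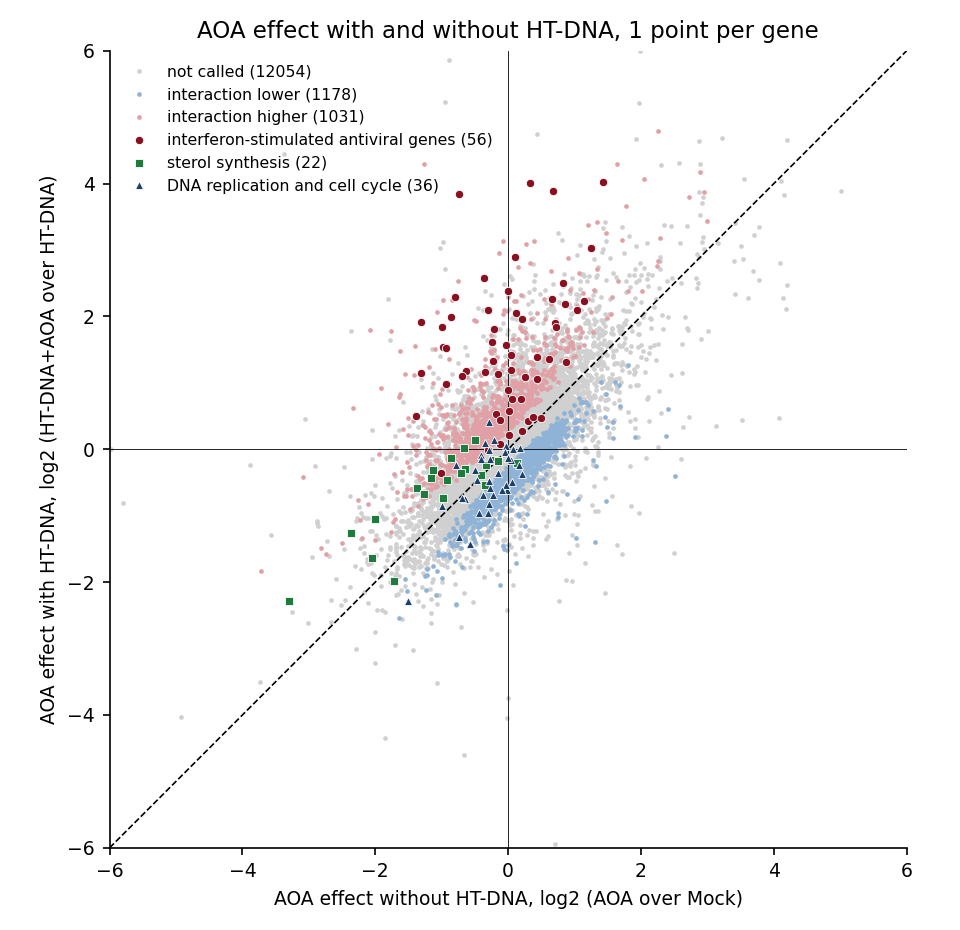
Log2 effect of AOA without HT-DNA (horizontal) against its log2 effect with HT-DNA (vertical), 1 point per tested gene, with genes of positive interaction, of negative interaction and not called in separate colours, and the tested members of the ISG (56), sterol synthesis (22) and replication and cell cycle (36) lists drawn over them as circles, squares and triangles. Points above the diagonal have a positive interaction, 1031 of them called, and points under it a negative one, 1178 called. 19 genes lie outside the axis limit of 6 and are not drawn.

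The libraries differed in a property that follows the interaction. The median log2 expression of the 20% of genes highest in GC content minus that of the 20% lowest in it, taken relative to the average of all libraries, was -0.030 to -0.014 in Mock, 0.001 to 0.133 in AOA and 0.295 to 0.507 in HT-DNA, and it spread from -0.334 to 0.404 in HT-DNA+AOA, where replicate 3 was the highest. Genes with a positive interaction had a median transcript GC content of 45.2%, genes with a negative one 54.7% and genes not called 49.0%. The median interaction went from 0.31 in the lowest of 10 equal groups of genes by GC content to -0.28 in the highest. After the trend with GC content and transcript length was removed from every library, 1098 genes (7.7%) were positive and 1645 (11.5%) negative, and 759 of the 1031 positive genes and 924 of the 1178 negative ones kept their call. For this reason the value after removal of the trend (the GC-corrected value) is given beside each gene list below. The counts for the simple effects moved as well. With the trend removed, HT-DNA raised 3285 and lowered 2881 genes without AOA, and raised 1311 and lowered 1607 with AOA. With AOA and aspartate it raised 647 and lowered 647. AOA raised 3856 and lowered 3535 genes without HT-DNA, and raised 3578 and lowered 3782 with it. Without HT-DNA+AOA replicate 3 the counts were 2558 positive and 2862 negative, without AOA replicate 2 they were 524 and 621, and with the 12 libraries fitted on their own they were 440 and 579. Total counts were 17901605 to 24057343 per library (median 20270174), and mitochondrial transcripts took 2.69 to 3.15% of them. Summed fibroblast markers stood at 4727 to 6889 CPM (counts scaled to library size) in the 12 libraries, although Thy1 and Fap were near 0 in all of them, and 10 leukocyte markers summed to 113 to 157 CPM, of which nearly all was Cd68, with Ptprc, Adgre1 and Cd3e at 0. Cd68 was at 120.1 to 134 CPM in Mock, 118 to 132 in AOA, 111 to 126 in HT-DNA and 138 to 155 in HT-DNA+AOA, and its interaction was 0.30 ± 0.10, adjusted p = 0.0495. In RNA from whole cultures, fewer cells of a kind and less RNA per cell cannot be told apart.

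**Figure D2:**
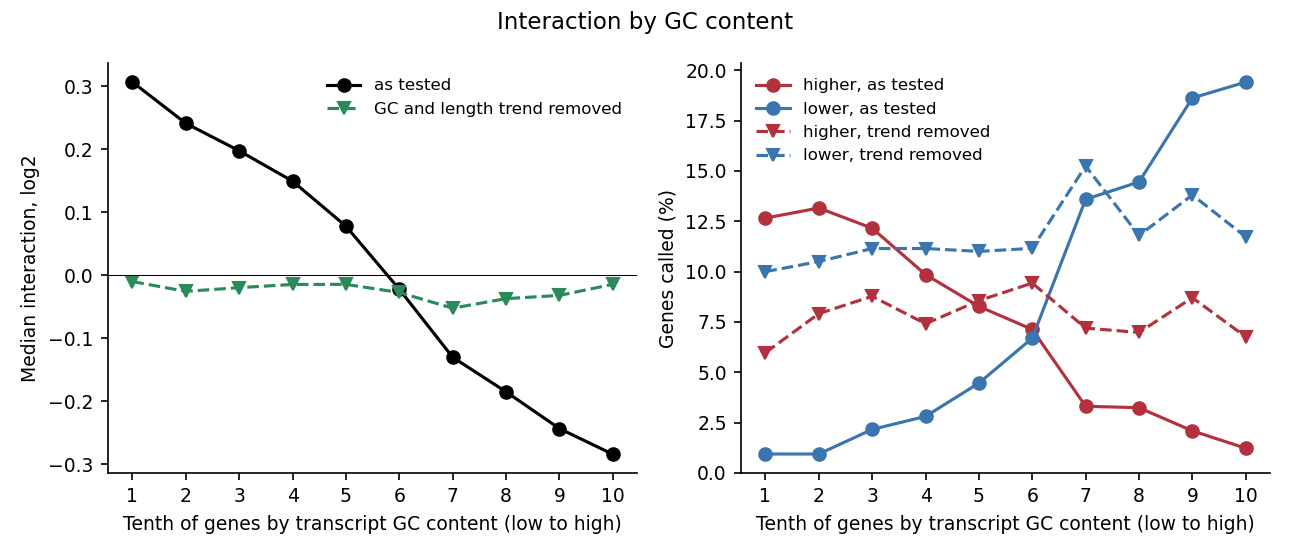
The 10 equal groups of tested genes by transcript GC content (horizontal, numbered from low to high) against the median log2 interaction and against the percent of genes called positive and called negative, before and after the trend with GC content and length was removed. Before removal the median runs from 0.31 to -0.28, and after it all 10 medians lie between -0.052 and -0.010.

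ISGs made up the clearest group with a positive interaction. Of the 60 genes on the ISG list 56 were tested, 42 had a positive interaction, none had a negative one, and the median interaction was 1.54, against 0.006 over all genes and 7.23% of all genes called positive. The 4 members left out for low counts (Ifit1bl1, Cmpk2, Parp12 and Epsti1) had at most 3 counts in any library. After GC correction 49 of the 56 were positive and the median was 1.5, and the median without 4 members that held 3 or fewer counts per library in some group was 1.45. AOA without HT-DNA raised 13 of the 56 and lowered 9, against 22.4% and 23.3% of all genes, whereas AOA with HT-DNA raised 51 and lowered 1, against 22.8% and 22.7%. HT-DNA without AOA raised 37 and lowered 3, against 24.2% and 24% of all genes, and HT-DNA with AOA raised 54, against 6.46%. Among the 42 called members, 12 were raised by HT-DNA only when AOA was present, and in 36 every HT-DNA+AOA library lay above the other 9 libraries, as in 17.6% of all genes called positive. Among the 52 tested members with over 3 counts in at least 1 library of every group this arrangement was found for 45, against 4.56% of all tested genes.

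A sequence that the fit did not use, the ISRE, was common near the starts of genes on the ISG list. The letters GAAA, any 2 bases and GAAA again, on either strand, searched in the window from 250 bases before to 50 bases after the start of transcription in RefSeq (GRCm38.p6), were found for 22 of the 45 ISG-list genes with a window (48.9%) and for all 9 interferon-inducible GTPase genes with one, against 3.76% of 9840 tested genes and 3.99% of all 27025 genes with a window. They were found for 8.28% of 761 genes with a positive interaction, 3.09% of 937 with a negative one and 3.41% of 8142 not called. Within the ISG list they were found for a larger share of uncalled than of called members. Most uncalled members with a window held them, namely Isg15, Bst2, Ddx60, Ifi205, Ifit3b, Lgals9, Ogfr and Shisa5. Ifi35, Nmi, Oasl1 and Ube2l6, also uncalled, did not. Most called members with a window held no match, among them Samd9l and Znfx1. Median GC content of the windows was 50.3% for the ISG list, 46.7% for the GTPases and 60.7% for tested genes, and its part in these shares was not tested. The bases upstream of the start are shown for 4 genes whose interactions are described next, with the matching letters in capitals. Ifit1 (chr19:34640639-34640888, plus strand) has matches at -104 to -95 and -85 to -76 from the start, Rsad2 (chr12:26456453-26456702, minus strand) at -120 to -111, Igtp (chr11:58199306-58199555, plus strand) at -34 to -25 and Irgm2 (chr11:58214727-58214976, plus strand) at -64 to -55.
Ifit1: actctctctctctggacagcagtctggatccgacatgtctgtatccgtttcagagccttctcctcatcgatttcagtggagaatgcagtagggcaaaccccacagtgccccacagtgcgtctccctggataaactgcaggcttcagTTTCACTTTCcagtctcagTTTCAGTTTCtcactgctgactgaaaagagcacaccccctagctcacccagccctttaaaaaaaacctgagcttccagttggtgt
Rsad2: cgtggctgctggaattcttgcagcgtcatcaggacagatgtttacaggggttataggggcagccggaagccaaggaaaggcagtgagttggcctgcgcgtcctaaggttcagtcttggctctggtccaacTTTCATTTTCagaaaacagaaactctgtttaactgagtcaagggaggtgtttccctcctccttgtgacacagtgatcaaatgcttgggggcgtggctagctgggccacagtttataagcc
Igtp: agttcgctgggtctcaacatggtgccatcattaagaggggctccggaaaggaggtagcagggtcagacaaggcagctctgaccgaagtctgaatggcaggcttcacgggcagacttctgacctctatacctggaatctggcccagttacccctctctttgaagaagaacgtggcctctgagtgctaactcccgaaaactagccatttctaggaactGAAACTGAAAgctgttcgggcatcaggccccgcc
Irgm2: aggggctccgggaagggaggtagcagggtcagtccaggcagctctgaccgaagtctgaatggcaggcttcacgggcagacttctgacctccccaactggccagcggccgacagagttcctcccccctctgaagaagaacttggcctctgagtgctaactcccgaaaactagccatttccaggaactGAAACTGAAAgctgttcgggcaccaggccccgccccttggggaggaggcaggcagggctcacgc
The match is on the reverse strand in Ifit1 and Rsad2, where it reads TTTC, 2 bases and TTTC, and Igtp and Irgm2, neighbouring genes, carry the same 10 letters. The windows of Ifi44 and Phf11d hold no match, although both genes are among those with the largest positive interactions.

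Ifi44, an interferon-induced antiviral gene, had the largest interaction among genes with at least 4 counts in 1 or more libraries of every group. It was at 0.677, 0.811 and 0.807 CPM in Mock, 0.983, 0.859 and 1.05 in AOA, 1.11, 1.8 and 1.14 in HT-DNA and 30.4, 18 and 17.3 in HT-DNA+AOA. Only the HT-DNA+AOA libraries were high, and they did not overlap the other 9, which lay between 0.677 and 1.80 CPM. The AOA effect on Ifi44 was 0.32 without HT-DNA (adjusted p = 0.462) and 4.02 with it (adjusted p = 1.82e-10), an interaction of 3.69 ± 0.43, adjusted p = 2.97e-05. Ifit1, whose protein binds viral RNA that lacks host cap marks, was at 0.212, 0.18 and 0.427 CPM in Mock, 0.0517, 0.129 and 0.233 in AOA, 58.4, 70.1 and 69.3 in HT-DNA and 214, 177 and 182 in HT-DNA+AOA. Here HT-DNA alone raised the gene and AOA raised it further, with no overlap between HT-DNA and HT-DNA+AOA, and the interaction was 2.51 ± 0.54, adjusted p = 0.00583. Rsad2, which encodes viperin, was at 0.254, 0.225 and 0.0475 CPM in Mock, 0.207, 0.0429 and 0.0581 in AOA, 15, 14.5 and 13.1 in HT-DNA and 96.7, 56.7 and 56.1 in HT-DNA+AOA. It followed the order of Ifit1, but Mock and AOA held only 1 to 6 counts per library, and the interaction of 3.10 ± 0.96, adjusted p = 0.0369 lost its call in 7 of 20 alternative settings. Ifit2 and Ifit3, from the same gene family as Ifit1, had interactions of 2.47 and 2.84, with 61.8% of the 31-base words of Ifit3 shared with other genes.

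Other ISGs differed in how far HT-DNA alone moved them. Oas2, which makes the activator of RNase L, was at 0.631 to 0.889 CPM in Mock, 0.362 to 0.465 in AOA, 0.699 to 1.04 in HT-DNA and 2.31 to 5.69 in HT-DNA+AOA (interaction 2.85 ± 0.5, adjusted p = 0.00142). Mx2, a dynamin-like GTPase, was at 0 to 0.332, 0.0581 to 0.466, 0.874 to 1.21 and 12.2 to 18 CPM in the same order (interaction 3.22 ± 0.84, adjusted p = 0.0172), on 0 to 9 counts in Mock and AOA libraries. Both were highest in HT-DNA+AOA without overlap. Uba7, which activates ISG15 for conjugation, was at 1.35, 0.631 and 0.902 CPM in Mock, 1.03, 1.25 and 0.814 in AOA, 1.72, 1.71 and 1.66 in HT-DNA and 13.8, 10.5 and 13.5 in HT-DNA+AOA, an interaction of 2.78 ± 0.34, adjusted p = 6.44e-05. Usp18, which removes ISG15 and restrains the interferon receptor, was at 1.61, 0.811 and 1.38 CPM in Mock, 1.4, 1.5 and 1.92 in AOA, 6.72, 5.78 and 6.03 in HT-DNA and 43.9, 35.7 and 50.4 in HT-DNA+AOA (interaction 2.48 ± 0.30, adjusted p = 5.38e-05). For Usp18 the HT-DNA libraries already lay above Mock and AOA, and the HT-DNA+AOA libraries lay above all of them. Parp14, an ADP-ribosyltransferase, had an interaction of 3.22 ± 0.40, adjusted p = 6.88e-05, the PHD finger gene Phf11d of 2.94 ± 0.35, adjusted p = 3.64e-05 and Samd9l, which restrains protein synthesis, of 2.46 ± 0.26, adjusted p = 1.6e-05. Eif2ak2, which encodes the double-stranded RNA-activated kinase PKR, changed direction. It was at 35.5, 38.2 and 34.6 CPM in Mock, 19.1, 17.8 and 20.1 in AOA, 21.7, 26.7 and 23.5 in HT-DNA and 70.8, 38.2 and 33.1 in HT-DNA+AOA, so that AOA lowered it without HT-DNA (-0.93) and raised it with HT-DNA (0.98), although 2 of the 3 HT-DNA+AOA libraries lay within or near the Mock range. Members with smaller interactions were Oas1a at 0.63, Oas3 at 1.74, Slfn5 at 1.93, Xaf1 at 1.67, Znfx1 at 1.52, Rtp4 at 1.60, Rnf213 at 1.13 and Zc3hav1 at 0.90. Pml, which organises nuclear bodies, was the 1 member that AOA lowered with HT-DNA (-0.36), and it lowered it further without HT-DNA (-1.02), which gave a positive interaction of 0.66 ± 0.11, adjusted p = 0.000984. Isg15 and Oasl1 were not called, with interactions of 0.74 ± 0.32, adjusted p = 0.118 and 0.45 ± 0.17, adjusted p = 0.0818, and both were called after GC correction at 0.94 and 0.68. Mx1 did not pass (adjusted p = 0.0842), with 4 or fewer counts in every Mock and AOA library.

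**Figure D3:**
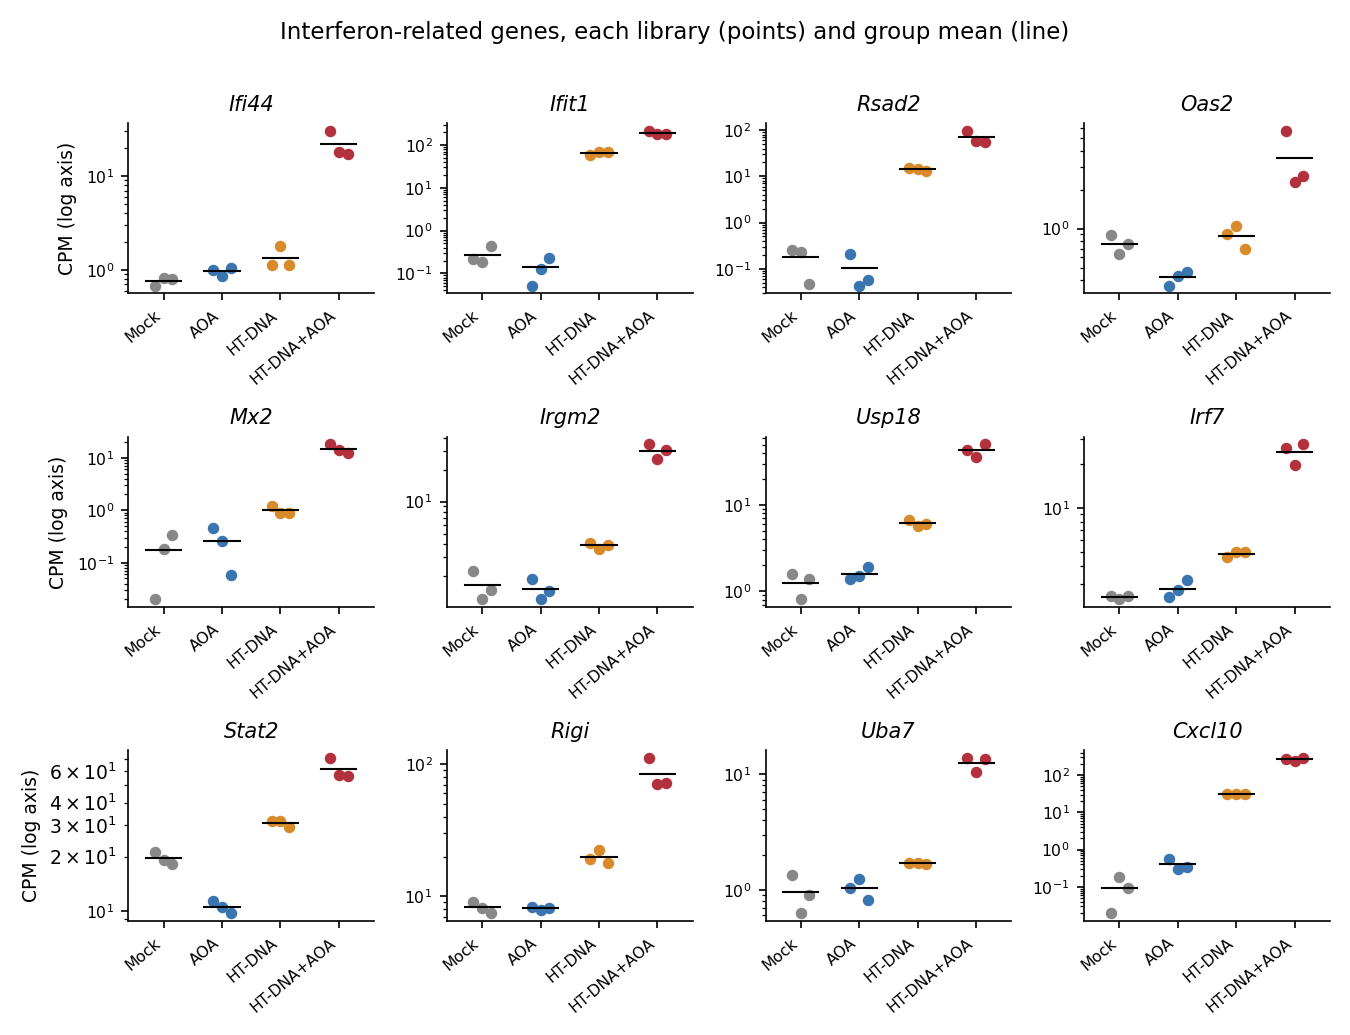
CPM on a log axis in each of the 12 libraries (points) with group means (lines) for 12 interferon-related genes in Mock, AOA, HT-DNA and HT-DNA+AOA cells. A library at 0 is drawn at 0.02 CPM. In all 12 panels the 3 HT-DNA+AOA points are the highest, whereas the HT-DNA points stand near Mock for Ifi44 and Oas2 and far above it for Ifit1, Rsad2 and Cxcl10.

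The interferon-inducible GTPases attack the membranes around intracellular microbes and were the list with the highest median. Of 15 genes 11 were tested, 4 had a positive interaction and none a negative one, with a median of 3.08 that GC correction moved to 2.94. In 6 of the 11 at least 1 group held 3 or fewer counts in every library, so that their fitted values depend on the prior count, and the median without them was also 3.08. The other 5 were higher in every HT-DNA+AOA library than in the other 9 libraries, as 4.56% of all tested genes were. Irgm2 was at 2.2, 1.22 and 1.47 CPM in Mock, 1.86, 1.2 and 1.45 in AOA, 4.09, 3.6 and 3.93 in HT-DNA and 34.5, 24.9 and 30.4 in HT-DNA+AOA. The HT-DNA libraries lay above Mock and AOA, the HT-DNA+AOA libraries far above both, and the interaction was 3.08 ± 0.29, adjusted p = 4.25e-06. Igtp (3.23 ± 0.42, adjusted p = 0.000109), Irgm1 (2.5 ± 0.23, adjusted p = 3.51e-06) and Iigp1 (3.54 ± 0.78, adjusted p = 0.00685), the other called members, belong to the same GTPase family as Irgm2. The guanylate-binding proteins were thin without HT-DNA, and Gbp2 (adjusted p = 0.0502) and Gbp3 (adjusted p = 0.075) did not pass.

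Signalling genes downstream of the interferon receptor also had positive interactions. Of 25 genes on the list of interferons, receptors, STAT and IRF factors 21 were tested, 8 were positive and none negative, with a median of 0.42 (8 positive and a median of 0.44 after GC correction). Stat2, a subunit of ISGF3, was at 21.4, 19.2 and 18.1 CPM in Mock, 11.4, 10.5 and 9.71 in AOA, 31.8, 31.8 and 29.3 in HT-DNA and 70.9, 56.9 and 56.6 in HT-DNA+AOA. The 4 groups did not overlap, with AOA the lowest and HT-DNA+AOA the highest, at a mean of 61.5 ± 8.17 CPM (SD, n = 3) against 31 ± 1.43 in HT-DNA. AOA thus lowered Stat2 without HT-DNA (-0.89, adjusted p = 2.18e-06) and raised it with HT-DNA (0.99, adjusted p = 1.01e-07), an interaction of 1.88 ± 0.14, adjusted p = 1.08e-06. Irf7, which amplifies interferon transcription, was at 2.45, 2.34 and 2.47 CPM in Mock, 2.43, 2.7 and 3.2 in AOA, 4.55, 4.97 and 4.98 in HT-DNA and 26, 19.6 and 27.3 in HT-DNA+AOA (interaction 2.13 ± 0.23, adjusted p = 1.46e-05). Here HT-DNA alone already separated from Mock and AOA. Irf9 (1.41), another subunit of ISGF3, Irf1 (1.38), Jak2 (0.99) and Stat3 (0.44) were positive as well, and the receptor genes Ifnar1 at 0.11 ± 0.12, adjusted p = 0.552 and Ifnar2 at -0.13 ± 0.11, adjusted p = 0.424 were not called. Ifnb1 itself had no counts in any Mock, AOA or HT-DNA library and 6, 4 and 2 counts in HT-DNA+AOA, too few to be tested, and a count of 0 allows up to 3 counts per library.

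Of 25 genes for DNA and RNA sensing 24 were tested, 10 were positive and 2 negative, with a median of 0.34 (11 positive and 1 negative after GC correction). The negative count was 0 without Mock replicate 2 or AOA replicate 2, 1 without Mock replicate 1 or 3, AOA replicate 3 or HT-DNA replicate 1, and 4 without HT-DNA+AOA replicate 3. The RNA sensors moved most. Rigi, which encodes RIG-I, was at 9.14, 8.11 and 7.5 CPM in Mock, 8.38, 7.86 and 8.2 in AOA, 19.2, 22.5 and 17.8 in HT-DNA and 111, 70.4 and 71.7 in HT-DNA+AOA, with HT-DNA above Mock and AOA and HT-DNA+AOA above all (interaction 2.11 ± 0.21, adjusted p = 8.28e-06). Ifih1, which encodes MDA5, had an interaction of 2.61 ± 0.43, adjusted p = 0.000937, the endosomal RNA receptor Tlr3 of 2.84 ± 0.54, adjusted p = 0.00269 and Dhx58, which encodes LGP2, of 1.33 ± 0.17, adjusted p = 6.88e-05. The DNA sensor Cgas was at 8.13, 9.46 and 7.55 CPM in Mock, 5.8, 5.71 and 6.45 in AOA, 7.98, 6.77 and 8.69 in HT-DNA and 12.4, 11.2 and 8.41 in HT-DNA+AOA, an interaction of 0.94 ± 0.20, adjusted p = 0.00504. AOA lay below Mock, whereas HT-DNA+AOA overlapped both HT-DNA and Mock. Tbk1 (0.45 ± 0.15, adjusted p = 0.0468) was positive, and Sting1 (0.30 ± 0.16, adjusted p = 0.198) and Irf3 (-0.16 ± 0.13, adjusted p = 0.409) were not called. Trex1, the exonuclease that removes cytosolic DNA, had an interaction of 1.71, but it shares 97.6% of its 31-base words with other genes, so that its counts are uncertain. Zbp1, the sensor of Z-form nucleic acids that binds RIPK1 and RIPK3, was at 0.0846, 0 and 0.142 CPM in Mock, 0.207, 0.386 and 0.174 in AOA, 2.22, 2.56 and 2.8 in HT-DNA and 9.77, 8.93 and 9.72 in HT-DNA+AOA. The HT-DNA+AOA libraries were the highest without overlap, and AOA raised Zbp1 by 1.90 with HT-DNA (adjusted p = 5.01e-07), but its effect without HT-DNA was 1.75 on 0 to 9 counts per library, and the interaction was 0.15 ± 1.36, adjusted p = 0.966. Ripk1 (0.13 ± 0.17, adjusted p = 0.609) and Ripk3 (0.04 ± 0.11, adjusted p = 0.817) were not called, and Mlkl was at 0.38 ± 0.11, adjusted p = 0.0253. Ticam1, the TLR3 adaptor, and Pqbp1, a cGAS cofactor, were negative at -0.46 and -0.59, and the call of Ticam1 was lost after GC correction. MHC class I genes showed little of this pattern, with 2 positive and 1 negative of 20 and a median of 0.07. Those shares, 10% and 5%, were near the 7.23% and 8.26% of all genes. After GC correction 4 were positive and 1 negative, and 1 to 4 were positive when single libraries were left out. Nlrc5, the activator of that family, was at 0.73 ± 0.18, adjusted p = 0.0124.

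Among chemokines, Cxcl1 and Cxcl2 had positive interactions, whereas Cxcl10 and Ccl5, which HT-DNA raised most, were not called. Of 21 chemokine genes 14 were tested, 3 were positive and 1 negative, with a median of 0.34 (4 positive and 1 negative after GC correction). Cxcl10, which attracts T cells, was at 0, 0.18 and 0.0949 CPM in Mock, 0.569, 0.301 and 0.349 in AOA, 30.7, 30.6 and 31.2 in HT-DNA and 279, 234 and 286 in HT-DNA+AOA. The 4 groups did not overlap, yet AOA raised Cxcl10 by 2.09 without HT-DNA (adjusted p = 0.00764) and by 3.11 with it (adjusted p = 2.72e-13), and the interaction was 1.02 ± 0.80, adjusted p = 0.388. That value was 0.11 without Mock replicate 2 and 1.61 without Mock replicate 1. Ccl5 had no counts in Mock and was at 0 to 0.259 CPM in AOA, 22.9 to 27.7 in HT-DNA and 112 to 146 in HT-DNA+AOA, and its interaction did not pass (adjusted p = 0.416), with no size given because Mock held no counts. For both genes the AOA effect without HT-DNA rests on 11 or fewer counts per library, so that a difference between the AOA effects without and with HT-DNA was not detectable at this depth. Cxcl2, which attracts neutrophils, was at 10.6, 8.2 and 9.82 CPM in Mock, 83.7, 57.7 and 71.8 in AOA, 7.73, 7.06 and 8.08 in HT-DNA and 144, 137 and 132 in HT-DNA+AOA. HT-DNA alone left Cxcl2 below every Mock library, AOA alone raised it, and the HT-DNA+AOA libraries were the highest, an interaction of 1.28 ± 0.17, adjusted p = 0.000109. Cxcl1 was at 167, 169.5 and 173 CPM in Mock, 583, 440.3 and 577 in AOA, 166, 154 and 160.3 in HT-DNA and 904, 889.9 and 998 in HT-DNA+AOA, with the same arrangement of AOA and HT-DNA+AOA (interaction 0.89 ± 0.12, adjusted p = 0.000203). Ccl20 was positive at 2.65 ± 0.81, adjusted p = 0.0334 on 1 to 12 counts in Mock and HT-DNA libraries, Cx3cl1 was negative at -0.57 ± 0.13, adjusted p = 0.00861, and the monocyte attractant Ccl2 was not called at 0.16 ± 0.12, adjusted p = 0.368.

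The NF-kB letters, GGG and TTTCC with any 2 bases between them, were more frequent in chemokine windows than in others. On either strand they occurred for 5 of the 8 tested chemokine genes with a window, Ccl20, Cxcl1, Cxcl2, Cxcl3 and Ccl9, against 2.07% of tested genes and 1.89% of all genes. The upstream bases of Cxcl1 (chr5:90890995-90891244, plus strand) and Cxcl2 (chr5:90903649-90903898, plus strand) are shown with matches in capitals, at -89 to -80 and -71 to -62 in Cxcl1 and at -97 to -88 and -78 to -69 in Cxcl2.
Cxcl1: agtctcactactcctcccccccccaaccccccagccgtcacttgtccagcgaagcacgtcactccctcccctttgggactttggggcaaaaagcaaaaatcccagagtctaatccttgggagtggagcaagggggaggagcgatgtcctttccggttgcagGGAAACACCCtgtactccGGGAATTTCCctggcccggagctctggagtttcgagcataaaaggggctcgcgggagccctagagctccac
Cxcl2: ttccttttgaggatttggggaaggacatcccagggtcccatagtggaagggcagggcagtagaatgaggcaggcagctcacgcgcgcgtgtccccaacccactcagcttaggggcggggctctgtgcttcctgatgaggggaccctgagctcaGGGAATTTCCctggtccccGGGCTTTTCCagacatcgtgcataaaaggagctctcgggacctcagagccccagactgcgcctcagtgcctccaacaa
Both genes contain GGGAATTTCC, and the ISRE letters are in neither window, whereas the window of Cxcl10 holds the ISRE letters and not the NF-kB ones.

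Il6 and Il1a were the cytokine genes with the largest positive interactions. Of 30 cytokine and growth factor genes 17 were tested, 5 were positive and 1 negative, with a median of 0.27 (5 and 0 after GC correction, and 3 positive without AOA replicate 2). Il6 was at 0.169, 0.18 and 0.19 CPM in Mock, 0.517, 0.301 and 0.756 in AOA, 0.606, 0.663 and 0.786 in HT-DNA and 6.11, 6.52 and 7.22 in HT-DNA+AOA. Its HT-DNA+AOA libraries were the highest without overlap, but the interaction of 1.78 ± 0.59, adjusted p = 0.0491 did not pass after GC correction (adjusted p = 0.069). Il1a (1.34 ± 0.32, adjusted p = 0.0105), Bdnf (1.10 ± 0.22, adjusted p = 0.00344), the stress cytokine Gdf15 (0.80 ± 0.14, adjusted p = 0.0017) and Fgf7 (0.61 ± 0.16, adjusted p = 0.0171) were positive, and Il34 (-0.57 ± 0.18, adjusted p = 0.0365) was negative. Among 27 NF-kB subunits and feedback targets 23 were tested, 2 were positive and 1 negative, with a median of -0.01. These shares, 8.70% positive and 4.35% negative, were close to or below the 7.23% and 8.26% of all genes. After GC correction 6 were positive and 1 negative, with a median of 0.18. The positive count was 4 without HT-DNA replicate 2 and 6 without HT-DNA+AOA replicate 3. The positive members were Map3k8 (2.19 ± 0.30, adjusted p = 0.000179), a kinase upstream of ERK, and Nfkbiz (0.80 ± 0.13, adjusted p = 0.000736), a nuclear cofactor of NF-kB. Among 38 immediate early and ERK feedback genes 36 were tested, 7 were positive and 1 negative, with a median of 0.08 (11 and 2 after GC correction, and 4 positive without AOA replicate 2). Egr1 was at 7.74, 9.46 and 8.02 CPM in Mock, 1.71, 1.07 and 0.756 in AOA, 9.3, 12.1 and 12.1 in HT-DNA and 4.49, 3.39 and 4.11 in HT-DNA+AOA (interaction 1.33 ± 0.29, adjusted p = 0.00608). AOA alone lowered Egr1, and the HT-DNA+AOA libraries lay between AOA and Mock without overlap. The mRNA-decay factor Zfp36 (0.76 ± 0.19, adjusted p = 0.0122) and the ERK inhibitor Spry4 (0.86 ± 0.20, adjusted p = 0.00968) were positive, and Srf (-0.73 ± 0.15, adjusted p = 0.00536), a factor that drives such genes, was negative.

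Sterol synthesis was the list outside the interferon genes with the highest share of positive interactions. These genes are driven by SREBP2 when cell cholesterol is low. Of 25 genes 22 were tested, 13 were positive and none negative, with a median of 0.43 (17 positive, 1 negative and a median of 0.35 after GC correction). AOA without HT-DNA lowered 19 of the 22 and HT-DNA without AOA lowered 15, against 23.3% and 24% of all genes. All 13 positive genes were lowered by each agent given alone. Insig1, which retains the SREBP escort protein in the ER, was at 184, 179.6 and 182 CPM in Mock, 37.8, 33.3 and 35 in AOA, 114, 118 and 112 in HT-DNA and 50.7, 50.1 and 42.6 in HT-DNA+AOA, an interaction of 1.10 ± 0.10, adjusted p = 4.25e-06. The 4 groups did not overlap, with AOA lowest and HT-DNA+AOA next, and the AOA effect on Insig1 was -2.36 without HT-DNA and -1.26 with it. Fdft1, squalene synthase, was at 63.9, 60.6 and 63.6 CPM in Mock, 32.8, 35.7 and 34.8 in AOA, 53.6, 51.3 and 49.8 in HT-DNA and 44.7, 49.8 and 46.3 in HT-DNA+AOA (interaction 0.73 ± 0.10, adjusted p = 0.00012), again with AOA lowest and Mock highest, while HT-DNA and HT-DNA+AOA overlapped at 1 library. HT-DNA thus lowered both genes without AOA (-0.67 for Insig1 and -0.28 for Fdft1) and raised both with AOA (0.44 and 0.45). Hmgcs1 (0.96) and Lss (0.63), further enzymes of the pathway from acetyl-CoA to lanosterol, were positive too. On the list of LXR and SREBP1 lipid genes 16 of 18 were tested, 4 were positive and none negative, with a median of 0.10 (5 positive after GC correction), and the positive count was 2 without Mock replicate 1, AOA replicate 2 or 3, or HT-DNA replicate 1 or 3. Scd2, a fatty acid desaturase, was at 1492, 1429 and 1364 CPM in Mock, 312, 301 and 305 in AOA, 592, 664 and 549.7 in HT-DNA and 322, 304 and 242 in HT-DNA+AOA (interaction 1.16 ± 0.13, adjusted p = 1.7e-05). Mock was the highest and HT-DNA the next, AOA and HT-DNA+AOA overlapped, and the elongase Elovl6 had an interaction of 1.04 ± 0.20, adjusted p = 0.00283.

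**Figure D4:**
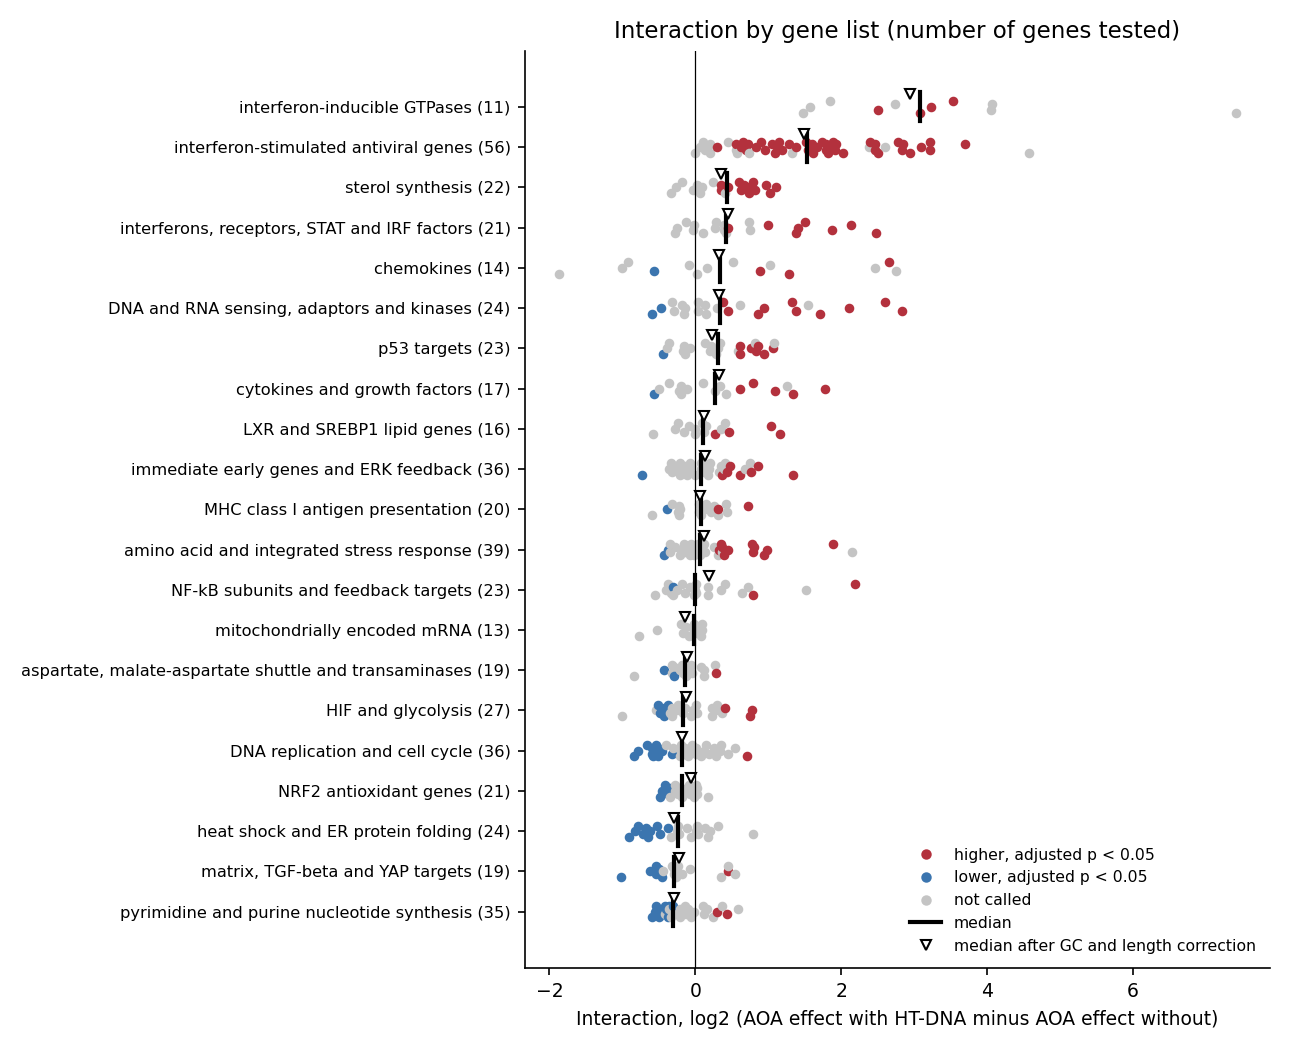
Log2 interaction of every tested member (points) of 21 gene lists, with the list median as tested and the median after GC correction. The 3 highest medians belong to interferon-inducible GTPases (3.08), ISGs (1.54) and sterol synthesis (0.43), and the lowest to nucleotide synthesis (-0.31).

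Genes of the integrated stress response, which ATF4 drives when amino acids run short, were for the most part raised by AOA both without and with HT-DNA. Of 41 genes 39 were tested, and AOA raised 31 without HT-DNA and 30 with it, against 22.4% and 22.8% of all genes. The interaction was positive for 11 and negative for 2, with a median of 0.06 (17 positive, 2 negative and a median of 0.12 after GC correction). The positive count was 5 without Mock replicate 3 or AOA replicate 2, 6 without HT-DNA+AOA replicate 2 and 7 without Mock replicate 1 or HT-DNA replicate 3. The negative count was 8 without HT-DNA+AOA replicate 3, 1 without AOA replicate 3 and 0 when any other single library was left out. Of the 11 positive genes 9 were raised by AOA alone and 10 were lowered by HT-DNA alone. Slc6a9, a glycine transporter, was at 70.9, 61.8 and 71.9 CPM in Mock, 89, 95 and 84.2 in AOA, 29.5, 29.1 and 28.2 in HT-DNA and 57.7, 66 and 74.4 in HT-DNA+AOA (interaction 0.80 ± 0.13, adjusted p = 0.000984). The HT-DNA libraries were the lowest, and the 28.4% of 31-base words that this gene shares with others leaves part of its counts uncertain. Slc7a11, the cystine importer, had an interaction of 0.94 ± 0.17, adjusted p = 0.0017 that GC correction moved to 0.49, and Vldlr one of 0.98 that moved to 0.58. Cebpg (0.80), Aldh1l2 (0.78), Fgf21 (1.89) and Ddit3 (0.45) were also positive. Phgdh (-0.43), the first enzyme of serine synthesis, and Slc7a5 (-0.37) were negative, and Phgdh lost its call after GC correction. The C/EBP-ATF letters TGATGNAA occurred in the windows of 12 of 31 genes of this list (38.7%) against 2.77% of tested genes. Slc7a11 (chr3:50443614-50443863, minus strand) carries a pair of them on opposite strands, at -66 to -59 and -47 to -40.
Slc7a11: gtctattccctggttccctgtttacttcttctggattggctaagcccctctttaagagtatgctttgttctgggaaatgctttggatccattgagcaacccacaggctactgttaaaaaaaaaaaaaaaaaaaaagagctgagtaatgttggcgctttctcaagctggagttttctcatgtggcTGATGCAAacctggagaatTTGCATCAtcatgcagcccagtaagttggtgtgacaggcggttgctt

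Of 25 p53 targets 23 were tested, 7 were positive and 1 negative, with a median of 0.31 (7 and 0, and 0.23, after GC correction). Gadd45a, which arrests growth after stress, was at 21.7, 21.8 and 25.9 CPM in Mock, 176, 180.1 and 176 in AOA, 15.1, 14.7 and 14.2 in HT-DNA and 204, 221 and 222 in HT-DNA+AOA. HT-DNA alone was the lowest and HT-DNA+AOA the highest, without overlap, an interaction of 0.94 ± 0.10, adjusted p = 1.7e-05. Cdkn1a, which encodes the cell cycle inhibitor p21, had an interaction of 0.62 ± 0.11, adjusted p = 0.00145, Plk2 of 0.77 ± 0.18, adjusted p = 0.0108 and the death receptor gene Eda2r of 0.83 ± 0.18, adjusted p = 0.00631. The count of positive members was 4 without HT-DNA+AOA replicate 1 and 11 without HT-DNA+AOA replicate 3.

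Nucleotide synthesis was the list with the lowest median and the highest number of negative interactions, while the share of negative genes was slightly higher in the protein folding list. Of 35 genes all were tested, 14 were negative and 2 positive, with a median of -0.31, against 8.26% of all genes called negative (20 negative, none positive and a median of -0.29 after GC correction). HT-DNA alone raised 23 of the 35 and AOA alone raised 15, against 24.2% and 22.4% of all genes. All 14 negative genes were raised by HT-DNA alone. Cad, the enzyme that joins aspartate into the pyrimidine ring, was at 405, 405 and 368 CPM in Mock, 522, 538 and 484 in AOA, 479, 479 and 518 in HT-DNA and 468, 448 and 530.1 in HT-DNA+AOA. Mock was the lowest group, HT-DNA and HT-DNA+AOA overlapped, and the AOA effect was 0.39 without HT-DNA (adjusted p = 0.0004) and -0.03 with it (adjusted p = 0.783), an interaction of -0.42 ± 0.11, adjusted p = 0.0158. Dhodh (-0.55 ± 0.13, adjusted p = 0.0104) and Umps (-0.37 ± 0.09, adjusted p = 0.0102), the next steps of the same pathway, and Uck2 (-0.40 ± 0.08, adjusted p = 0.00427), which salvages uridine, were negative. Rrm2, the regulated subunit of ribonucleotide reductase, was at 429.6, 463 and 403 CPM in Mock, 369, 343 and 314 in AOA, 624, 702 and 619 in HT-DNA and 369.8, 353 and 360.2 in HT-DNA+AOA. HT-DNA alone stood highest, and the HT-DNA+AOA libraries overlapped the AOA libraries, an interaction of -0.51 ± 0.11, adjusted p = 0.00624. Atic (-0.51 ± 0.10, adjusted p = 0.00307), which closes the purine ring, was negative, and Rrm1 (0.44) and Paics (0.30) were positive but lost their call after GC correction. The negative count fell to 8 without Mock replicate 1, AOA replicate 2 or HT-DNA replicate 1 and to 9 without Mock replicate 3 or HT-DNA+AOA replicate 2, and the positive count was 4 without HT-DNA+AOA replicate 3, 2 without HT-DNA replicate 2 and 0 or 1 when any other single library was left out. On the list of aspartate metabolism and transaminases 19 of 26 were tested, 1 was positive and 2 negative, with a median of -0.14 (1 and 4 after GC correction). The shares as tested, 5.26% and 10.5%, were near the 7.23% and 8.26% of all genes. The negative count was 8 without HT-DNA+AOA replicate 3, 0 without Mock replicate 1 or 3, AOA replicate 2 or HT-DNA replicate 1 or 3, and 1 when any other single library was left out. Got2 was at 331 to 343 CPM in Mock, 426 to 453 in AOA, 405 to 423 in HT-DNA and 397 to 492 in HT-DNA+AOA, with Mock lowest, AOA above HT-DNA and HT-DNA+AOA overlapping both, and its interaction of -0.30 ± 0.10, adjusted p = 0.045 did not pass after GC correction (adjusted p = 0.112). Gpt2 was at 82.3, 80.3 and 78.4 CPM in Mock, 111, 106 and 99.1 in AOA, 56.2, 58.6 and 52.9 in HT-DNA and 86.8, 91.7 and 89.6 in HT-DNA+AOA, an interaction of 0.29 ± 0.09, adjusted p = 0.0372, and Ass1, which uses aspartate to make argininosuccinate, was at -0.43 ± 0.12, adjusted p = 0.0233.

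Cell cycle genes had negative interactions as well. Of 36 genes tested 13 were negative and 1 positive, with a median of -0.18 (15 and 3 after GC correction). AOA alone lowered 22 of the 36 and HT-DNA alone raised 17, against 23.3% and 24.2% of all genes. AOA lowered all 13 negative genes when HT-DNA was present. Plk1, a mitotic kinase, was at 139, 141 and 136 CPM in Mock, 95.1, 95.4 and 88.5 in AOA, 199.6, 189 and 211 in HT-DNA and 66.4, 74 and 84 in HT-DNA+AOA. HT-DNA was highest and HT-DNA+AOA lowest, without overlap, so that the AOA effect on Plk1 was -0.57 without HT-DNA and -1.42 with it (interaction -0.84 ± 0.11, adjusted p = 0.000111). Aurka (-0.52 ± 0.08, adjusted p = 0.000686), the CDK phosphatase Cdc25a (-0.66 ± 0.11, adjusted p = 0.00096), E2f2 (-0.78 ± 0.14, adjusted p = 0.00188) and Ccnd1 (-0.55 ± 0.10, adjusted p = 0.00231) were negative, and Pola1, a subunit of DNA polymerase alpha, was positive (0.71 ± 0.20, adjusted p = 0.0231).

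Genes for protein folding in the cytosol and ER were another negative group. Of 25 genes 24 were tested, 10 were negative and none positive, with a median of -0.24 (14 negative and a median of -0.29 after GC correction). AOA lowered all 10 when HT-DNA was present and 3 of them without HT-DNA. Dnajb9, an ER co-chaperone, was at 67, 63.2 and 63.5 CPM in Mock, 70, 80.3 and 75.5 in AOA, 65.3, 66.9 and 55.3 in HT-DNA and 38.2, 42 and 42.8 in HT-DNA+AOA. The HT-DNA+AOA libraries were the lowest without overlap, and the interaction was -0.83 ± 0.11, adjusted p = 9.52e-05. Xbp1, the factor spliced by IRE1 in ER stress, was at 167, 168 and 173 CPM in Mock, 159, 172 and 162 in AOA, 192, 182 and 175 in HT-DNA and 105, 109.9 and 125 in HT-DNA+AOA, with the same group lowest (interaction -0.65 ± 0.10, adjusted p = 0.000352). Herpud1 (-0.90 ± 0.15, adjusted p = 0.000937), which acts in ER-associated degradation, the co-chaperone Bag3 (-0.72 ± 0.10, adjusted p = 0.000164) and the constitutive HSP70 gene Hspa8 (-0.67 ± 0.09, adjusted p = 0.000112) were negative, and Hspa8 shares 44.8% of its 31-base words with other genes.

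Smaller lists with more negative than positive calls were glycolysis, NRF2 targets and matrix genes. Glycolysis was mixed, with 11.1% positive and 22.2% negative against 7.23% and 8.26% of all genes. The negative share was 23.8% for NRF2 targets and 31.6% for matrix genes. Of 27 HIF and glycolysis genes 6 were negative and 3 positive, with a median of -0.17 (8 and 2 after GC correction), among them Ldha at -0.51 ± 0.13, adjusted p = 0.0152 and Gpi1 at -0.43 ± 0.09, adjusted p = 0.00499. The negative count was 2 without Mock replicate 1, AOA replicate 2 or HT-DNA replicate 3, and 3 without Mock replicate 2, HT-DNA replicate 1 or HT-DNA+AOA replicate 2. The positive members Ndrg1 (0.76 ± 0.16, adjusted p = 0.00583) and Ero1a (0.78 ± 0.18, adjusted p = 0.00883) are not glycolytic enzymes, and Pfkp, which is one, lost its positive call after GC correction. Of 21 NRF2 targets 5 were negative and none positive, with a median of -0.19 (7 negative, 2 positive and a median of -0.05 after GC correction, and 8 negative without HT-DNA+AOA replicate 3). Txnrd1, thioredoxin reductase, was at -0.46 ± 0.09, adjusted p = 0.00344, the pentose phosphate enzyme Pgd at -0.49 ± 0.12, adjusted p = 0.0104 and glutathione reductase, Gsr, at -0.41 ± 0.10, adjusted p = 0.0111. Of 29 matrix, TGF-beta and YAP targets 19 were tested, 6 were negative and 1 positive, with a median of -0.29 (8 and 1, and -0.22, after GC correction, and 11 negative without HT-DNA+AOA replicate 3). Ccn1, a YAP target, was at 5.42, 6.49 and 5.74 CPM in Mock, 8.12, 6.91 and 6.51 in AOA, 10.2, 12.1 and 13.1 in HT-DNA and 7.05, 5.9 and 8.59 in HT-DNA+AOA (interaction -1.01 ± 0.23, adjusted p = 0.00745), with HT-DNA the highest, AOA above Mock and HT-DNA+AOA overlapping both. Mmp14 (-0.5), Col5a1 (-0.46) and Timp1 (-0.54) were negative and Ankrd1 (0.45) was positive. None of the 13 mitochondrially encoded mRNAs was called, with a median of -0.02 that GC correction moved to -0.14.

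The 20 largest positive interactions ran from 2.48 to 3.69, and 17 of the 20 genes were on the lists. The other 3, Ccrl2 (3.22 ± 0.44, adjusted p = 0.000168), a chemokine-binding receptor, Trim30d (3.09 ± 0.80, adjusted p = 0.0164) and Trim34a (2.60 ± 0.53, adjusted p = 0.00419), the latter with 68.5% of its words shared, also had all HT-DNA+AOA libraries above the other 9. The 20 largest negative interactions ran from -2.18 to -1.17, were on none of the lists, and 13 of them were protein-coding genes. Id3, an inhibitor of basic helix-loop-helix factors, was at 4.4, 7.98 and 4.51 CPM in Mock, 27.7, 30.4 and 29.5 in AOA, 18.4, 16.3 and 18.3 in HT-DNA and 17, 19.4 and 24.3 in HT-DNA+AOA. Each agent alone raised Id3, and the HT-DNA+AOA libraries overlapped the HT-DNA libraries, an interaction of -2.18 ± 0.23, adjusted p = 1.42e-05. Mnt, a repressor of the MYC network, was at 20.9, 21.7 and 22.4 CPM in Mock, 20.7, 21.2 and 20.2 in AOA, 19.1, 19.6 and 18.5 in HT-DNA and 6.27, 5.9 and 8.05 in HT-DNA+AOA. Mock, AOA and HT-DNA lay close together, and only the HT-DNA+AOA libraries were low (interaction -1.44 ± 0.16, adjusted p = 1.84e-05). Lgr6, an R-spondin receptor, was at 28.9, 29.2 and 27.6 CPM in Mock, 35, 36.8 and 32.1 in AOA, 45.8, 45.9 and 45.7 in HT-DNA and 22.8, 22.5 and 24.6 in HT-DNA+AOA. It was raised by each agent alone and was lowest with both, without overlap (interaction -1.26 ± 0.10, adjusted p = 1.16e-06). Atoh8, a basic helix-loop-helix factor, was at 6.69, 8.29 and 6.64, 12.8, 13.3 and 10.2, 16.1, 14.7 and 17.3 and 6.84, 6.98 and 11.2 CPM in Mock, AOA, HT-DNA and HT-DNA+AOA (interaction -1.71 ± 0.22, adjusted p = 8.45e-05). Both single treatments lay above Mock, and the HT-DNA+AOA libraries overlapped both Mock and AOA. The small heat shock gene Hspb7 (-1.58 ± 0.20, adjusted p = 6.88e-05), the carnosine synthase gene Carns1 (-1.54 ± 0.24, adjusted p = 0.00065) and the kallikrein gene Klk10 (-1.55 ± 0.28, adjusted p = 0.00191) were also among these 20.

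**Figure D5:**
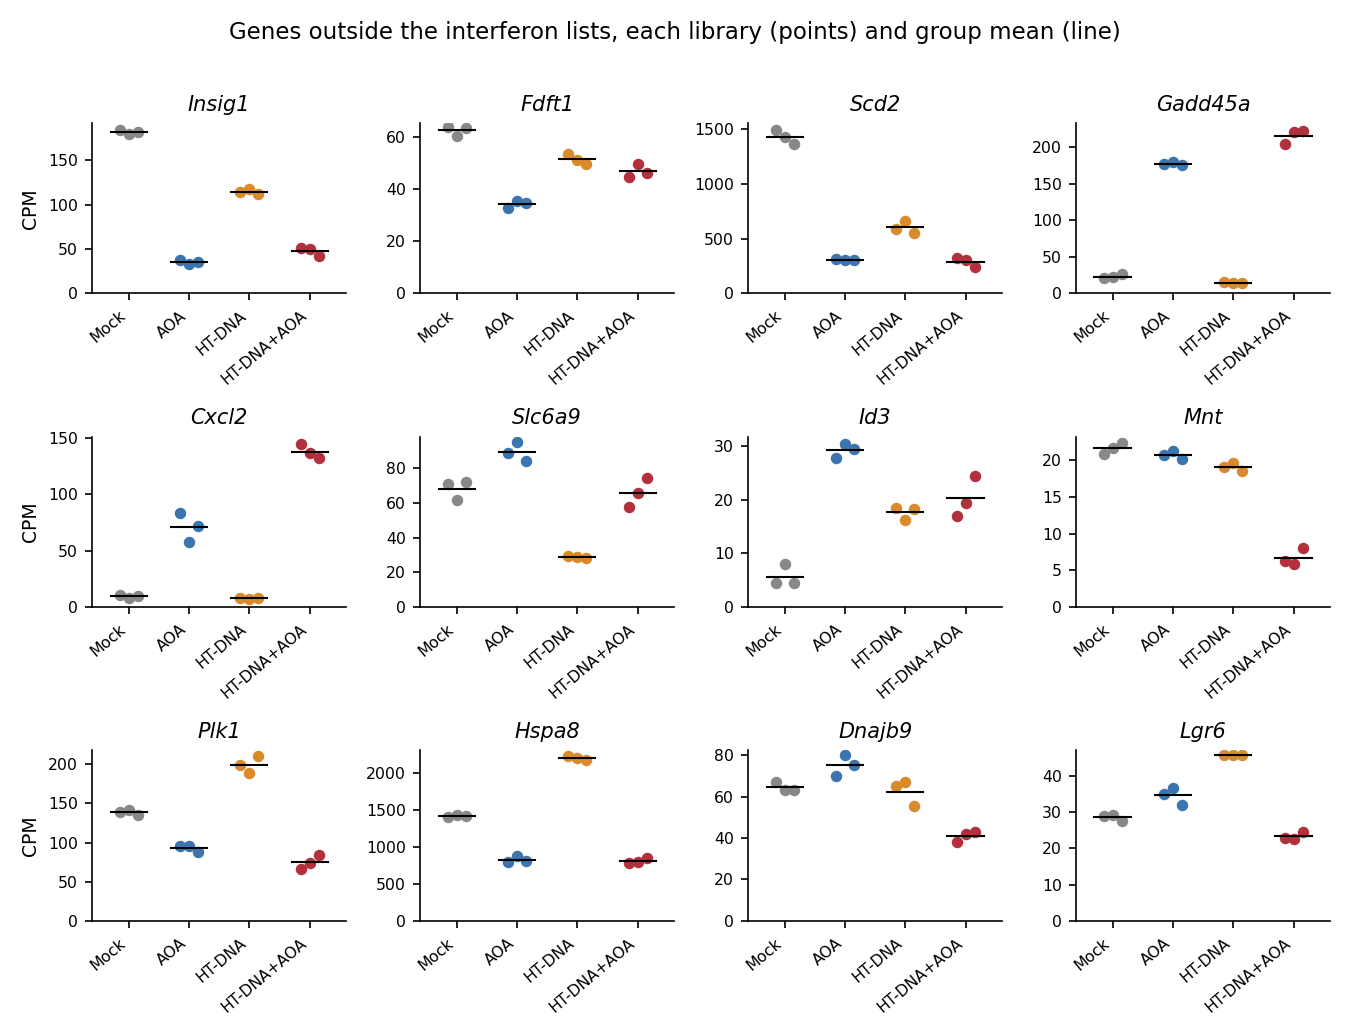
CPM on a linear axis in each of the 12 libraries (points) with group means (lines) for 12 genes outside the interferon lists in Mock, AOA, HT-DNA and HT-DNA+AOA cells. In the panels of Mnt, Plk1, Dnajb9 and Lgr6 the HT-DNA+AOA points are the lowest, whereas for Cxcl2 and Gadd45a they are the highest.

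Of 273 KEGG pathways with 20 to 200 tested genes, read from the deposited table, the pathway of alanine, aspartate and glutamate metabolism had the highest share of called genes, with 2 positive and 9 negative of 26 (42.3% against 15.5% of all genes). Glycolysis followed with 7 positive and 9 negative of 44 (36.4%), and then Measles, which covers genes of virus sensing and interferon signalling, with 28 positive and 8 negative of 106 (34.0%). These pathway shares are a description without a test, counted before GC correction, and no corrected share was computed for them. The separate list of aspartate metabolism and transaminases held 1 positive and 2 negative of 19 tested genes, or 5.26% and 10.5%.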

How the data were processed

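RNA sequencing of L929 cells gave 1 table of 57180 genes by 18 libraries, in which the authors deposited expected counts per gene together with group means, which were not used, and KEGG annotation. The aligner, counter and genome build are not given in the sources used here, and 11.56% of the deposited expected counts were not whole, so they were rounded. Genes were kept by edgeR's filterByExpr (minimum count 10, minimum total 15), which left 14263, scaled by TMM, and fitted with the robust quasi-likelihood model of edgeR 4.0.16 in R 4.3.3 with 1 mean for each of the 6 groups. All tests were two-sided, with Benjamini-Hochberg adjustment over all tested genes, a call at an adjusted p under 0.05, and ± on a log2 value giving its standard error. That standard error was taken as the absolute log2 value divided by the square root of its F statistic, so it is approximate, above all for genes with few counts. CPM values were taken on the scaled library sizes.

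Named genes were the 20 largest interactions in each direction among called genes with a symbol, at least 1 CPM in the highest group and at least 4 counts in 1 library of every group, the 4 members of each gene list with the smallest adjusted p, and Zbp1, Ifnb1, Cxcl10, Ccl5, Il6, Irf7, Got2, Gpt2 and Cad. Some genes that this rule names are not reported here. Other genes in the text were chosen after their values were seen. The interaction and the gene lists were chosen with earlier results of these data known. GC content and length of transcripts, known for 97.52% of tested genes, and shared 31-base words came from the reference annotation, and their trend was removed by loess (span 0.3) as an alternative. Further alternatives were RLE factors, library totals, DESeq2 1.42.0, other filters on low counts, a fit of the 12 libraries, a replicate block and leaving out each library. Promoter windows came from RefSeq. The fit was tested on simulated counts. The limit of 3 counts for a count of 0 covers counting error only, whereas the standard errors include the spread between cultures.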

Additional observations from a re-analysis of the deposited data

Results flagged for a closer look

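The effect of AOA without HT-DNA and its effect with HT-DNA differed by the interaction test itself for 1031 genes in the positive and 1178 genes in the negative direction, and the same test called 42 of the 56 tested ISGs positive.

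Among the libraries that entered the fit without being part of the comparison, HT-DNA in the presence of AOA and aspartate called 492 genes (3.45%) against AOA and aspartate, and raised 34 of the 56 ISGs. After GC correction the same comparison called 647 genes raised and 647 lowered.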

How the results depend on the processing

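The 42 positive ISGs came to between 35 and 49 under every alternative except that 33 kept an absolute log2 of at least 1, no ISG was negative in any of them, and leaving out single libraries gave 36 to 43. The counts over all genes moved more. Leaving out single libraries gave 524 to 2558 positive and 621 to 2862 negative genes, with 586 and 696 without Mock replicate 1, 658 and 764 without Mock replicate 2, 769 negative without Mock replicate 3, 566 and 690 without HT-DNA replicate 1, 566 and 689 without HT-DNA replicate 3, 685 positive without HT-DNA+AOA replicate 1 and 691 negative without HT-DNA+AOA replicate 2. Restricting the fit to the 12 libraries gave 440 and 579, an absolute log2 of at least 1 left 248 and 38, and library totals in place of TMM gave 763 negative genes. DESeq2 called 1358 and 1289. The cause of these differences was not tested. Same-numbered libraries of different groups shared only a number (18 correlations of their deviations from the group means, -0.095 to 0.278, 5 of them over 0.1, with 7 of 12 libraries closest to their own number), and the fit with the replicate number as a block gave 1041 and 1233.

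Among single genes, Zbp1 ranged from -0.55 to 0.70 when single libraries were left out and reversed to -0.55 without Mock replicate 3 and to -0.04 without AOA replicate 3, Ripk3 ranged from -0.030 to 0.14 and reversed without HT-DNA+AOA replicate 3, and Irf3 reversed to 0.10 and Ripk1 to -0.19 after GC correction, and none of these reversed values was called. Ripk3 passed after GC correction (0.24, adjusted p = 0.0173). The call was lost in 18 of 21 alternatives for Got2, 16 for Phgdh, 15 for Paics, 13 for Cd68 and Slc7a5, 12 for Il34 and Tbk1, 11 for Gpt2 and Rrm1, 9 for Mlkl and 8 for Ddit3, and in 12 of 20 for Il6 and 8 of 20 for Fgf21. Counts of 12 or fewer per library in Mock and AOA limit Rsad2, Mx2, Iigp1, Ifit1, Ifit3, Cxcl10, Ccl5 and Zbp1.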

Other observations

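The aspartate libraries give the same genes in cells that had AOA and 20 mM aspartate, without or with HT-DNA. They are described as values, because the series holds no group with aspartate and HT-DNA but no AOA. Of the 56 ISGs HT-DNA raised 34 in these cells (1.93% of all tested genes were raised), with a median effect of 0.96, whereas the median effect of HT-DNA was 0.68 without AOA and 2.23 with AOA. Of the 11 interferon-inducible GTPases it raised 10. Stat2 was at 18.8, 16.6 and 19.7 CPM in AOA+Asp and 40.9, 37.6 and 37.3 in HT-DNA+AOA+Asp, where its highest library stayed below the lowest HT-DNA+AOA library. Ifi44 was at 2.8, 2.89 and 2.23 CPM, Ifit1 at 72.4, 73.3 and 70.4, Irf7 at 3.97, 3.9 and 3.74, Usp18 at 4.59, 4.04 and 3.31, Irgm2 at 4.88, 3.99 and 4.36 and Cxcl10 at 26.8, 28 and 25.4 in HT-DNA+AOA+Asp. For each of these 6 genes the HT-DNA+AOA+Asp libraries lay below all HT-DNA+AOA libraries. Ifnb1 had 1 count in 1 of the 3 HT-DNA+AOA+Asp libraries.

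Outside the interferon genes, Insig1 was at 74.1, 74.8 and 80 CPM in AOA+Asp and 78.4, 85.7 and 85.5 in HT-DNA+AOA+Asp, between the HT-DNA and the HT-DNA+AOA libraries. The HT-DNA effect on Insig1 was 0.13 in these cells (adjusted p = 0.425). Mnt, which was low in HT-DNA+AOA, was at 18.8, 24.1 and 19 CPM in AOA+Asp and 15.8, 13.9 and 17 in HT-DNA+AOA+Asp, an HT-DNA effect of -0.40 (adjusted p = 0.0444). Lgr6 was at 53.8, 57.7 and 63.5 CPM in AOA+Asp and 52.9, 52.8 and 53.5 in HT-DNA+AOA+Asp, above every library of the 4 compared groups.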
